A study of Mus musculus with 6 samples.

Results

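Macrophages, the monocytes that replenish them and the phagocytic receptors they share were followed through 40 genes in pressure-loaded mouse hearts. The genes were chosen by name, with earlier results of these data known. Of these, 39 had a probe set assigned to them alone among the 18029 genes measured. Ly6c1, a surface antigen of monocytes and of blood endothelium, had none in the annotation used and was not analysed here. Emr4 was found under its current symbol, Adgre4. Each gene was read from its brightest probe set, and the 39 genes had 69 probe sets in all. They were ordered by role into 6 resident macrophage genes, 10 genes of recruited or activated cells, 3 growth factor and lineage genes, 5 Fc receptors and signalling adaptors, 11 general macrophage and leukocyte genes, and 4 genes of MHC class II.

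RNA came from hearts of 3 Tmbim1 knockout mice and 3 wild type mice labelled Flox, given as separate biological samples and all on a C57BL/6 background. The mice were 8 weeks old, and the hearts were taken after 2 weeks of what the labels call aortic binding surgery, read here as aortic banding, a narrowing that loads the left ventricle. The values compare genotypes under load and do not describe the response to banding, since unoperated hearts were not analysed here. How the knockout was made, in which cells the gene was lost, and whether the groups were littermates are not given in the sources used here.

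The heart holds a population of resident macrophages, part of which expresses Lyve1, Timd4, Folr2, Cd163 and Mrc1 and renews itself locally. Under injury or load, blood monocytes enter and turn into further macrophages. Macrophages depend on the growth factor CSF1 and its receptor, engulf antibody-coated targets through Fc receptors, and show peptides to T cells on MHC class II molecules, which a subset of them carries at high level.

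Signals are log2 values per probe set after RMA, and differences are knockout minus wild type on that scale with n = 3 mice per group. Adjusted p-values are from limma, with Benjamini-Hochberg adjustment over all 38195 probe sets. The 6 arrays correlated at 0.989 to 0.996. Tmbim1 itself fell by 0.91 (SE 0.10, adjusted p = 0.00579), and 3 values of 7.49 to 7.56 in knockout hearts lay below 3 values of 8.33 to 8.58 in wild type hearts. Cardiomyocyte markers were bright on every array, the least bright of 9 being Ryr2 at 9.86 to 10.46. Knockout replicate 1 alone carried the atrial transcripts Myl7, Myl4 and Sln, with Myl7 at 12.86 against 3.45 to 3.90 elsewhere. Nppa, also listed as an atrial marker, was bright on every array. It was at 11.85 to 12.67 in wild type and 13.36 to 13.78 in knockout hearts (adjusted p = 0.0496). In whole tissue, fewer cells of a type and less RNA per cell cannot be told apart, and RMA removes any shift common to all genes.

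The genes did not move as a block. Clec7a, a receptor for fungal glucans, fell in knockout hearts, and the 4 MHC class II genes stood lower without passing the threshold. Fc receptors, Lyve1, F13a1 and Lgals3 stood higher, also without passing, and the other 4 resident genes differed by -0.22 (Timd4) to 0.15 (Mrc1), with overlapping groups. By limma 1 of 39 members passed, against 0.549% of all genes, of which 0.322% were higher and 0.227% lower. At an unadjusted p under 0.05 there were 15 of 39 members (38.5%), 9 higher and 6 lower, against 11.5% of all genes, 5.19% higher and 6.33% lower. Of the 6 lower, 4 were the MHC class II genes, which varied together over arrays. The groups did not overlap in 14 of 39 members (35.9%), 9 higher and 5 lower, against 16.7% of all genes, 7.34% higher and 9.38% lower. The members were chosen with earlier results of these data known, so these shares are descriptive only. The median difference over the 39 was 0.15, with 27 positive, while over all genes it was -0.00 with 49.4% positive. It fell to 0.04, with 24 positive, without wild type replicate 3, the array on which 18 of the 39 members had their lowest value.

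**Figure D1:**
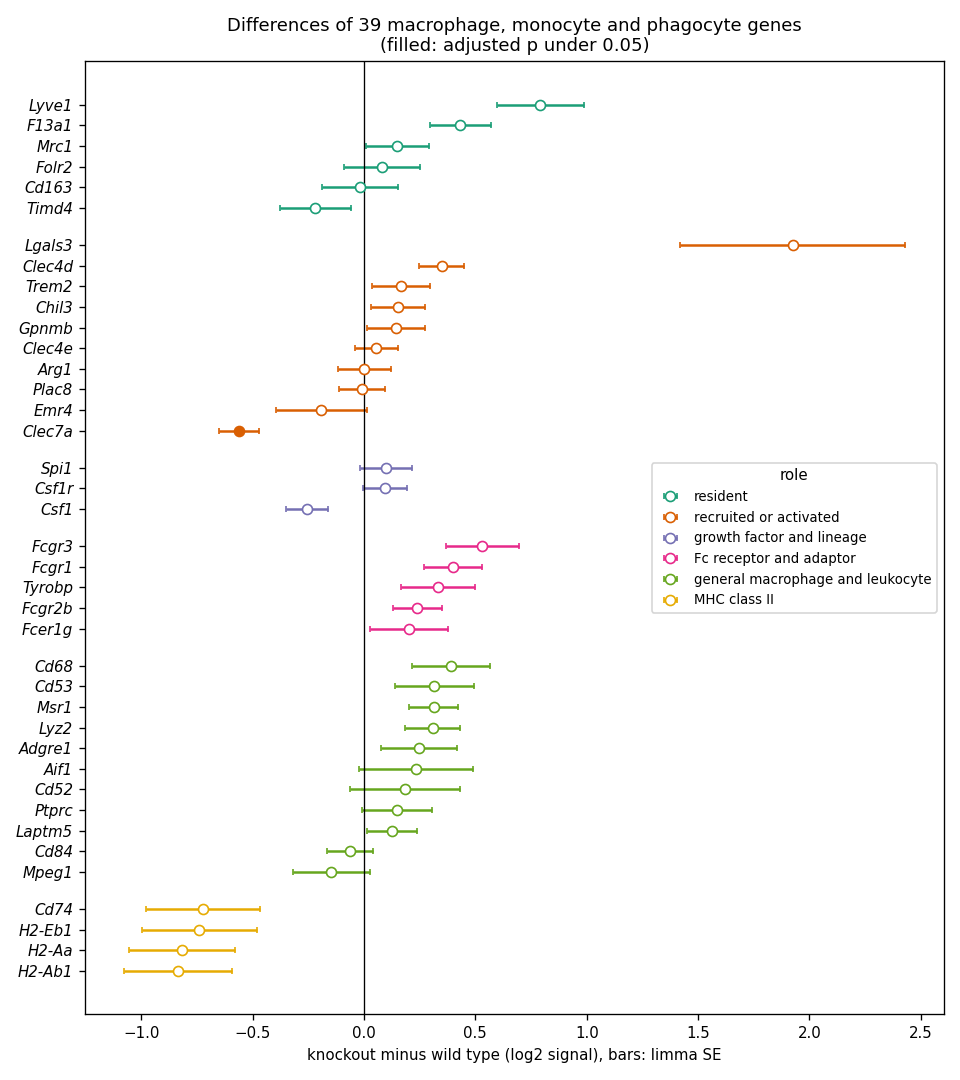
Difference of each of the 39 measured genes, knockout minus wild type in log2 signal (x axis), by role (y axis and colours); points are limma estimates, bars are 1 SE, n = 3 mice per group. Clec7a, filled, is the gene past the threshold, the 4 MHC class II genes lie between -0.84 and -0.72, and Lgals3 lies farthest to the right at 1.92.

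MHC class II genes stood lower in knockout hearts together. H2-Aa, which encodes the alpha chain of the I-A molecule, was at 10.44, 9.73 and 9.59 in wild type replicates 1 to 3 and at 9.09, 8.73 and 9.50 in knockout replicates 1 to 3. H2-Ab1, the matching beta chain, was at 9.29, 8.47 and 8.47 in wild type and at 7.95, 7.50 and 8.28 in knockout hearts. H2-Eb1, the beta chain of I-E, was at 9.31, 8.36 and 8.27 against 7.89, 7.58 and 8.24. In each of these the 3 knockout values lay below the 3 wild type values, with knockout replicate 3 close to wild type replicate 3 in H2-Aa and H2-Eb1. Cd74, the invariant chain that guides class II molecules to endosomes, was at 9.31, 8.43 and 8.49 against 8.05, 7.56 and 8.44, and there knockout replicate 3 lay within the wild type range.

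The differences were -0.82 for H2-Aa (SE 0.24, adjusted p = 0.217), -0.84 for H2-Ab1 (SE 0.24, adjusted p = 0.220), -0.74 for H2-Eb1 (SE 0.26, adjusted p = 0.321) and -0.72 for Cd74 (SE 0.26, adjusted p = 0.335), or 1.65- to 1.78-fold lower. None of these 4 passed. The same genes had 9 probe sets, which were negative in 9 of 9 cases, from -0.91 to -0.72. All 9 had an unadjusted p under 0.05, where 5.82% of all probe sets had one on the lower side, and 0 passed by limma after adjustment, where 0.183% did. The groups did not overlap in 7, against 8.42% of all probe sets on that side. Probe sets of a gene share its transcripts, and the 9 also shared their order over arrays, with wild type replicate 1 highest and knockout replicate 2 lowest in every case. The median of the 4 genes went from -0.78 to -0.50 without wild type replicate 1 and to -0.60 without knockout replicate 2. In each case 2 of the 4 kept an unadjusted p under 0.05, against 12.1% and 8.56% of all genes. The median was -0.95 without wild type replicate 3.

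**Figure D2:**
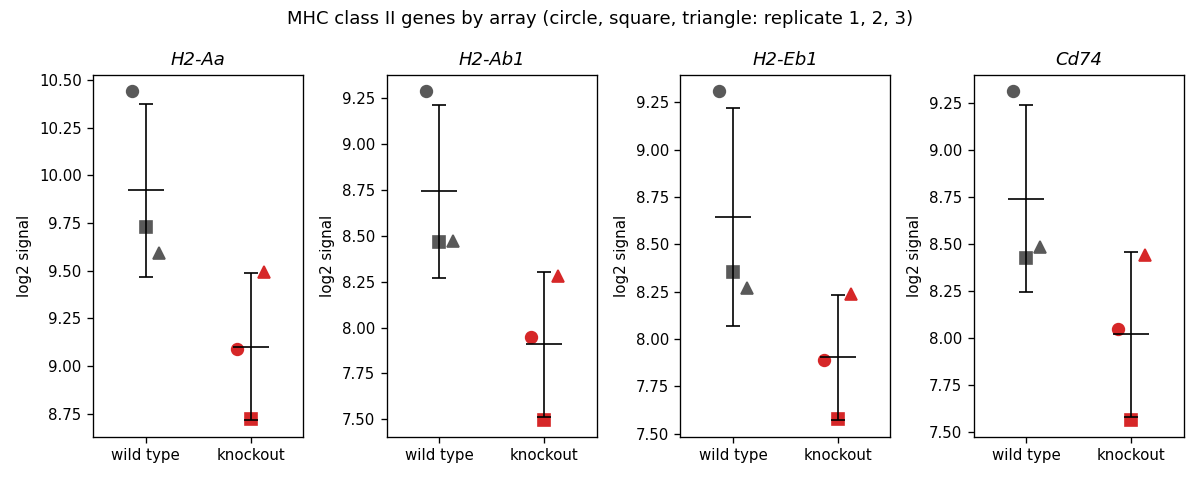
Log2 signal (y axis) of the 4 MHC class II genes in wild type (grey) and knockout (red) hearts; each symbol is 1 mouse, with circle, square and triangle for replicates 1, 2 and 3, and bars show the mean and SD. Wild type replicate 1 is the highest and knockout replicate 2 the lowest array in every panel, and the y axes do not start at 0.

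For H2-Aa and H2-Eb1 the start of the gene is shown with the letters that class II promoters are known for. H2-Ab1 had no entry among the promoter sequences used and could not be searched. Cd74 was left out of the genes shown, and its search result is not given. The letters are therefore not described as shared by all class II genes that stood lower. CIITA, the class II transactivator, acts through an X box, bound by RFX proteins, and a Y box, bound by NF-Y. The search was for GCAAC, a core of the X box, followed 20 to 30 bases later by CTGATTGG, a form of the Y box, on either strand. Sequences are RefSeq's on GRCm38.p6, each holds 300 bases (250 of them upstream of the gene's start), and the capitals mark these letters.
H2-Aa, chr17:34287774-34288073, minus strand: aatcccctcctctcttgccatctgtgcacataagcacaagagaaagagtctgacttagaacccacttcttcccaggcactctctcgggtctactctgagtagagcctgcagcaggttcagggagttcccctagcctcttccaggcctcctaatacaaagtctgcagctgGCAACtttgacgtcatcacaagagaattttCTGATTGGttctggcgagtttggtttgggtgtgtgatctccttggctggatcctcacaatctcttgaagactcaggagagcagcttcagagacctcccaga
H2-Eb1, chr17:34305617-34305916, plus strand: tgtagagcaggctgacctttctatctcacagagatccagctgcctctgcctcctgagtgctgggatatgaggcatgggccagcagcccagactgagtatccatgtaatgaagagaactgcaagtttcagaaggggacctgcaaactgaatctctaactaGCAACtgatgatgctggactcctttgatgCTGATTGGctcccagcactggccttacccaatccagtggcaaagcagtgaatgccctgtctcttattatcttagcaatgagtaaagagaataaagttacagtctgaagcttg

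The gap between the pair of motifs was 25 bases in H2-Aa and 24 bases in H2-Eb1. This arrangement occurred in 22 of 32851 promoter entries (0.067%), and CTGATTGG alone in 4.1% of them. Among other class II pathway genes, H2-DMa (a difference of -0.61), H2-Ob (-0.29) and H2-DMb2 (-0.15) lacked it and H2-Oa (-0.11) held it, and none of these 4 passed by limma. The arrangement describes these windows and does not show binding. Entries were found for 30 of the 40 genes.

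The other genes of the class II pathway did not follow uniformly. Of 10 measured, 0 passed by limma, 6 were negative and the median difference was -0.11. H2-DMa, a chain of the molecule that loads peptides onto class II, was at 6.22, 5.83 and 5.51 in wild type and 5.32, 4.84 and 5.58 in knockout hearts, a difference of -0.61 (SE 0.21, adjusted p = 0.312). Ifi30, a lysosomal thiol reductase that unfolds antigens, lay the other way, at 6.93, 6.92 and 6.29 against 7.15, 7.25 and 7.24 (0.50, adjusted p = 0.273). Ciita differed by -0.14 and was dim, with values from 2.97 to 3.75. Cells other than macrophages, such as dendritic cells and B cells, also carry class II molecules. Dendritic cell markers were positive in 1 of 7 cases with a median of -0.05, and their summed signal (log2 of the sum of linear signals) was 6.89 to 7.0 in wild type and 6.88 to 6.93 in knockout hearts. B cell markers were positive in 3 of 6 cases, with summed signals of 6.52 to 6.56 and 6.44 to 6.55. Most markers of both lists were dim, below the array medians, and the sums weigh mainly the brightest genes. In each list 1 gene was lower in every knockout heart and 0 were higher in all, where 9.38% of all genes were lower. These were Ccr7 (-0.20, adjusted p = 0.507) and Cd79a (-0.34, adjusted p = 0.233). T and NK cell markers, given as those of other leukocytes and not as class II carriers, were positive in 2 of 9 cases. Their summed signals were 7.31 to 7.52 and 7.22 to 7.39, highest on wild type replicate 1. The part of other cells in the class II values was not tested.

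Set against general macrophage genes of the same hearts, class II stood lower in every knockout heart. The mean of the 4 class II genes minus that of the 11 general genes, a quantity that is meaningful only between arrays, was 3.05, 2.16 and 2.63 in wild type hearts and 1.72, 1.23 and 1.98 in knockout hearts. The groups did not overlap, but wild type replicate 2 (2.16) and knockout replicate 3 (1.98) lay close. Wild type replicate 3 was the lowest array in 9 of the 11 general genes, which raises its value here.

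Among genes of recruited and activated cells, Clec7a fell while related lectins stood level or higher. Clec7a, or dectin-1, triggers phagocytosis of glucan particles through a tyrosine motif of its own. Its signal was 6.24, 6.15 and 6.20 in wild type and 5.67, 5.59 and 5.64 in knockout hearts. The values within a group lay close together and those of the groups lay far apart. Clec7a fell by 0.56 (SE 0.09, adjusted p = 0.0378), which is 1.48-fold lower. Leaving out any single array gave differences of -0.59 to -0.54 and ended the call, with adjusted p from 0.0857 to 0.169.

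Clec4d, a related lectin that signals through the Fc receptor gamma chain, was at 3.15, 3.12 and 3.38 in wild type and 3.52, 3.56 and 3.60 in knockout hearts (0.35, SE 0.10, adjusted p = 0.230). Its groups did not overlap, in signals below the array medians of 4.24 to 4.28. Clec4n, or dectin-2, was at 5.08, 5.34 and 4.39 against 5.68, 5.83 and 5.90 (0.87, SE 0.20, adjusted p = 0.136), and Clec5a at 3.86, 4.19 and 3.87 against 4.33, 4.26 and 4.12 (0.26, adjusted p = 0.475). Dectin-2 was higher in every knockout heart while dectin-1 was lower in every knockout heart. Of the 7 further lectins and signalling partners measured, 6 were positive and 0 passed by limma, with a median of 0.09. Clec4e, a receptor for damaged cells and mycobacterial lipid, differed by 0.06, in dim signals whose mean was under the lower quartile on each array (2.72 to 2.78).

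Lgals3, encoding galectin-3, a sugar-binding protein made by activated macrophages and by other cells, had the largest difference of the 39 genes. It was at 6.14, 5.76 and 5.01 in wild type hearts and at 8.50, 8.0 and 6.17 in knockout hearts. Knockout replicates 1 and 2 stood well above all others, and knockout replicate 3 lay just above wild type replicate 1. The difference was 1.92 (SE 0.50, adjusted p = 0.176), or 3.79-fold. It was 1.45 without knockout replicate 1, the heart that carried Myl7, Myl4 and Sln, and 2.62 (adjusted p = 0.0237) without knockout replicate 3. Over 16 alternatives in processing or arrays included, Lgals3 had an adjusted p from 0.0211 to 0.706 and was called in 2.

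The rest of the recruited and activated genes differed by -0.19 to 0.17. Plac8, expressed in circulating monocytes, was at 4.22, 4.39 and 4.10 in wild type and 4.26, 4.23 and 4.19 in knockout hearts (-0.01, adjusted p = 0.991), and the groups overlapped. Trem2 (0.17) and Gpnmb (0.15), genes of lipid-laden macrophages, and Adgre4 (-0.19), a receptor of the F4/80 family, overlapped as well. The second, dimmer probe set of each was at -0.12 (Trem2), -0.001 (Gpnmb) and -0.03 (Adgre4). Arg1 (0.00) and Chil3 (0.15), classical genes of alternative activation, were dim, with means under the lower quartile on each array.

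Further genes listed for recruited and activated cells leaned higher. Other cells also make some of them, such as S100a4 and Thbs1, and their part in these values was not tested. Of 16 measured, 14 were positive and 0 passed by limma, with a median of 0.30. At an unadjusted p under 0.05 there were 8 of the 16 (50%, against 11.5% of all genes), but 4 (25%, against 9.09%) without wild type replicate 3 and 5 (31.2%, against 10.6%) without knockout replicate 3. S100a4, a calcium-binding protein of monocytes and fibroblasts, was at 5.84, 6.09 and 5.75 in wild type and 6.64, 6.79 and 6.39 in knockout hearts (0.71, SE 0.13, adjusted p = 0.0636). Thbs1, a matrix protein released by monocytes, platelets and fibroblasts, was at 6.09, 5.62 and 5.54 against 6.57, 6.33 and 6.35 (0.67, SE 0.15, adjusted p = 0.114). In both, each knockout value exceeded each wild type value. The 2 negative genes were Ccr2, the chemokine receptor that defines recruited monocytes (-0.11), and Treml4 (-0.18, in dim signals). Itgam differed by 0.10, and the groups overlapped in all of these.

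Resident macrophage genes were divided. Lyve1, a hyaluronan receptor of perivascular macrophages and of lymphatic vessels, was at 6.04, 6.60 and 6.57 in wild type and at 7.48, 6.78 and 7.32 in knockout hearts. F13a1, the coagulation factor XIII A chain, was at 7.88, 8.45 and 8.23 against 8.61, 8.58 and 8.66. The groups did not overlap in either gene, and the knockout values of F13a1 lay close together. The differences were 0.79 for Lyve1 (SE 0.20, adjusted p = 0.158), with 0.55 at its other probe set, and 0.43 for F13a1 (SE 0.14, adjusted p = 0.263).

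The remaining resident genes overlapped between groups. Cd163, the haemoglobin scavenger receptor, was at 5.45, 6.09 and 6.02 in wild type and 5.99, 5.61 and 5.91 in knockout hearts, a difference of -0.02. Timd4, a receptor for phosphatidylserine on dying cells, was at 2.78, 3.47 and 3.32 against 2.95, 2.93 and 3.03 (-0.22, adjusted p = 0.722), in dim signals. Mrc1, the mannose receptor, was at 0.15 and the folate receptor Folr2 at 0.08. Wild type replicate 1 had the lowest value in 5 of the 6 resident genes and wild type replicate 2 the highest in 4. The median of the 6 differences, 0.12, went to -0.00 without wild type replicate 1 and to 0.31 without wild type replicate 2.

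Lymphatic vessels also express Lyve1, and their markers were positive in 4 of 5 cases with a median of 0.42. Their summed signal was 7.70 to 8.22 in wild type and 8.11 to 8.65 in knockout hearts. Mmrn1 differed by 1.28 and Pdpn by 0.42 without passing, whereas Prox1, which cardiomyocytes also express, fell by 0.91 (adjusted p = 0.0448). The part of lymphatic cells in the Lyve1 value was not tested.

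Among 17 other resident macrophage genes 0 passed by limma, with a median of 0.03. An unadjusted p under 0.05 was seen in 3 (17.6%, against 11.5% of all genes), 2 higher and 1 lower. The lower one was Hpgd (-0.33, adjusted p = 0.470), with overlapping groups. Vsig4, a complement receptor for phagocytosis, was at 2.65, 4.44 and 4.15 in wild type and at 6.51, 5.19 and 4.66 in knockout hearts (1.71, SE 0.50, adjusted p = 0.230). The knockout values were the 3 highest and the spread within each group was wide. Igf1, a growth factor made by macrophages and fibroblasts, was at 7.44, 7.56 and 6.82 against 7.92, 8.40 and 7.82 (0.78, SE 0.20, adjusted p = 0.179).

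**Figure D3:**
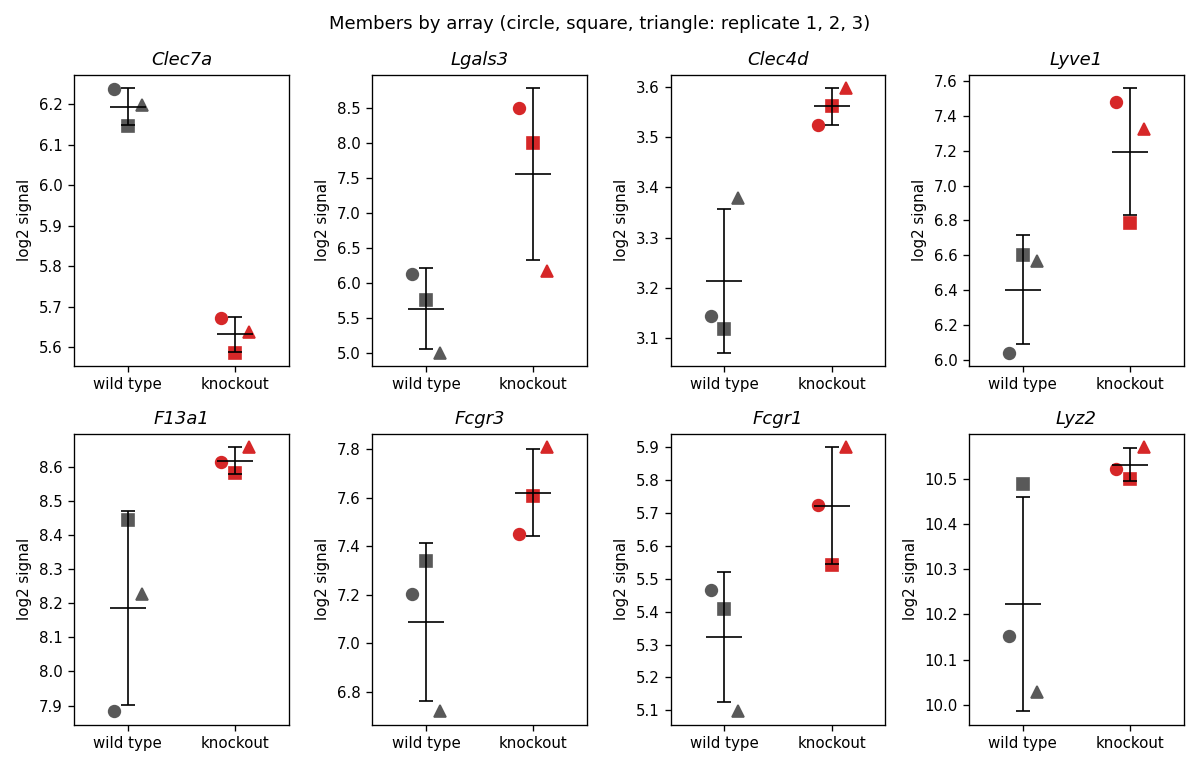
Log2 signal (y axis) of 8 genes in wild type (grey) and knockout (red) hearts; each symbol is 1 mouse, with circle, square and triangle for replicates 1, 2 and 3, and bars show the mean and SD. Clec7a is lower in all 3 knockout hearts, the other 7 genes are higher in all 3, and knockout replicate 3 of Lgals3, at 6.17, lies near wild type replicate 1 at 6.14. The y axes do not start at 0.

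Fc receptors and their signalling chains stood higher in all 5 cases, with a median of 0.33 and 0 past the limma threshold. Fcgr3, a low-affinity activating receptor for IgG, was at 7.21, 7.34 and 6.72 in wild type and 7.45, 7.61 and 7.81 in knockout hearts (0.53, SE 0.16, adjusted p = 0.243). Fcgr1, the high-affinity receptor, was at 5.47, 5.41 and 5.10 against 5.72, 5.54 and 5.90 (0.40, SE 0.13, adjusted p = 0.286). Neither gene's groups overlapped, although a second, dimmer probe set of Fcgr1 was at -0.15.

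Fcgr2b, the inhibitory receptor, was at 7.47, 7.19 and 7.29 in wild type and 7.62, 7.41 and 7.64 in knockout hearts (0.24, SE 0.11, adjusted p = 0.495), and its 4 other probe sets lay between 0.03 and 0.59. Fcer1g, the gamma chain through which the activating receptors signal, was at 7.65, 7.88 and 7.10 against 7.68, 7.78 and 7.79 (0.20, adjusted p = 0.773). The adaptor Tyrobp, also known as DAP12, was at 0.33 with overlapping groups. The Fcer1g difference was -0.02 without wild type replicate 3, the lowest array. Without that array the median of the 5 was 0.23.

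Of the growth factor and lineage genes, 0 of 3 passed by limma. Csf1, the growth factor of macrophages, was at 7.39, 7.38 and 7.43 in wild type and 7.07, 7.12 and 7.24 in knockout hearts, lower in each knockout heart (-0.26, SE 0.09, adjusted p = 0.346). Of its other probe sets 1 was at -0.31 and the others at 0.03 and -0.04. Csf1r, its receptor, was at 9.47, 9.46 and 9.40 against 9.56, 9.41 and 9.64 (0.09, SE 0.10, adjusted p = 0.829). Spi1, the transcription factor PU.1, was at 4.86, 4.86 and 4.63 against 4.95, 4.70 and 4.99 (0.10, adjusted p = 0.849). Csf1r and Spi1 overlapped between groups. Of 8 other growth factors and receptors 0 passed by limma and 1 (12.5%, against 11.5% of all genes) had an unadjusted p under 0.05. This was Csf2rb, the common beta chain for GM-CSF. It was at 3.49, 3.71 and 3.46 in wild type and 3.96, 3.82 and 3.83 in knockout hearts (0.32, adjusted p = 0.294), higher in each knockout heart. Kitl, the ligand of KIT, was at 9.04, 9.08 and 9.24 against 8.96, 9.29 and 9.61 (0.17, adjusted p = 0.791), and Il34, another ligand of the CSF1 receptor, differed by 0.04.

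General macrophage and leukocyte genes leaned higher in 9 of 11 cases, with a median of 0.23 and 0 past the limma threshold. Lyz2, encoding lysozyme, was at 10.15, 10.49 and 10.03 in wild type and 10.52, 10.50 and 10.57 in knockout hearts (0.31, SE 0.12, adjusted p = 0.407). Msr1, a scavenger receptor, was at 4.72, 4.93 and 4.82 against 5.06, 5.30 and 5.05 (0.31, SE 0.11, adjusted p = 0.319), while its 3 other probe sets lay between 0.03 and 0.09. Cd68, a lysosomal glycoprotein, was at 5.81, 6.46 and 5.78 against 6.25, 6.44 and 6.54 (0.39, SE 0.18, adjusted p = 0.470). Lyz2 and Msr1 did not overlap between groups, Lyz2 narrowly, and Cd68 did.

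Adgre1, which encodes the macrophage antigen F4/80, was at 6.93, 6.74 and 6.17 in wild type and 6.85, 6.84 and 6.88 in knockout hearts (0.25, adjusted p = 0.697). Ptprc, the leukocyte antigen CD45, was at 6.84, 6.62 and 6.19 against 6.66, 6.58 and 6.86 (0.15, adjusted p = 0.833). Mpeg1, a pore-forming protein of phagosomes, was at 7.68, 7.30 and 6.87 against 7.17, 7.10 and 7.12 (-0.15, adjusted p = 0.849). In all 3 the wild type range enclosed most or all knockout values, and wild type replicate 3 was the lowest of the 6. Cd53 (0.32), Aif1 (0.23), Cd52 (0.19), Laptm5 (0.13) and Cd84 (-0.06) made up the rest, and of these Cd53 narrowly did not overlap. Its lowest knockout value was 6.192 and its highest wild type value 6.185. Without wild type replicate 3 the median of the 11 genes was 0.03 and 6 were positive.

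The 24 other general myeloid genes had a median of 0.18, with 17 positive, and 0 passed by limma. An unadjusted p under 0.05 was seen in 7 of the 24 (29.2%, against 11.5% of all genes), but 4 (16.7%) without wild type replicate 3, against 9.09% of all genes, and 4 without knockout replicate 1, against 8.83%. Ms4a6d, a membrane protein of macrophages, was at 4.49, 4.70 and 4.10 in wild type and 5.12, 5.36 and 5.50 in knockout hearts (0.89, SE 0.16, adjusted p = 0.0501). C1qa, a chain of complement C1q, was at 8.62, 8.75 and 8.35 against 9.0, 8.89 and 9.09 (0.42, SE 0.12, adjusted p = 0.218). Both genes stood higher in every knockout heart. Without wild type replicate 3 the median of the 24 was 0.04.

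Genes for the uptake of dying cells did not lean higher. Of 18 measured, 7 were positive and 0 passed by limma, with a median of -0.03 and 2 at an unadjusted p under 0.05 (11.1%, against 11.5% of all genes). That count was 4 (22.2%, against 9.09%) without wild type replicate 3. It was 1 (5.56%) without knockout replicate 1 or 2, against 8.83% and 8.56% of all genes. Pros1, protein S, which bridges dying cells to the receptor MERTK, was at 6.72, 6.75 and 6.41 against 6.89, 7.10 and 7.05 (0.39, adjusted p = 0.246), and Cd47, which blocks engulfment, was at 8.71, 9.07 and 8.94 against 9.24, 9.17 and 9.07 (0.26, adjusted p = 0.465). Both stood higher in each knockout heart, Cd47 only narrowly, with its lowest knockout value at 9.073 and its highest wild type value at 9.066. Mertk itself differed by -0.02.

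Marker signals of some other cell types, and those of heat shock genes, also differed between the same hearts. Fibroblast markers were positive in 8 of 9 cases, with summed signals of 13.05 to 13.61 in wild type and 13.77 to 13.88 in knockout hearts, lowest on wild type replicate 3. Their median difference, 0.39, was 0.22 without that array, and the negative gene was Pdgfra (-0.03). Cardiomyocyte markers were negative in 9 of 9 cases, with summed signals of 16.27 to 16.33 and 16.16 to 16.21. Neutrophil markers were positive in 6 of 9 cases with a median of 0.08, and 0 passed by limma. S100a9 (1.32) and S100a8 (0.95), which monocytes also express, stood apart. The rest of that list lay between -0.13 (Mmp9) and 0.16 (Ngp). The median of mast cell markers was 0.05. Blood endothelial markers had a median of -0.07. Heat shock genes were positive in 8 of 8 cases, with summed signals of 13.52 to 13.60 and 13.84 to 13.87. Of these 8, 2 passed by limma, against 0.549% of all genes. They were Hspa1a (2.20, adjusted p = 0.0429) and Hspa1b (2.33, adjusted p = 0.00579). Of the 9 fibroblast markers 1 passed, Col3a1 (0.55, adjusted p = 0.0481). The part of these cell types and genes in the macrophage values was not tested.

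**Figure D4:**
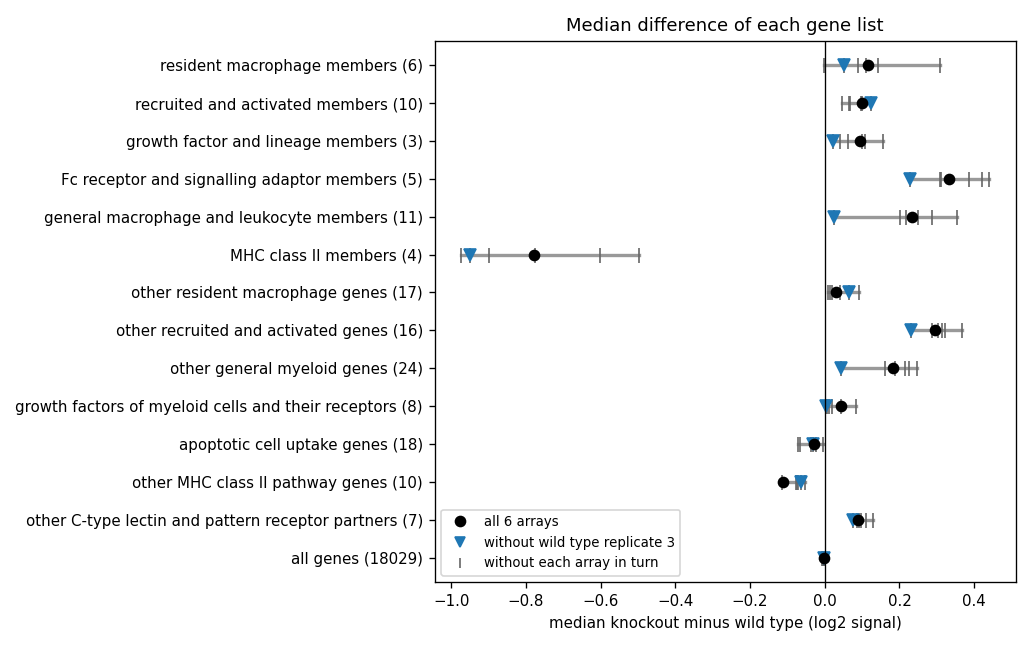
Median difference, knockout minus wild type in log2 signal (x axis), of each gene list and of all genes (y axis, number of genes in brackets) over all 6 arrays (black), without wild type replicate 3 (blue) and without each array in turn (ticks). The MHC class II median stays between -0.97 and -0.50, and that of the 11 general genes moves from 0.23 to 0.03 without wild type replicate 3.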

How the data were processed

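Per the labels, 3 knockout and 3 wild type mice gave 1 Affymetrix array each, from 400 ng of total RNA. The authors deposited a log2 signal for each probe set. The submitters' processing notes name RMA and limma without versions. Of 38208 features, 13 controls were dropped, and of the remaining 38195, 34325 had 1 gene symbol, 62 several and 3808 none. A gene was read from the probe set with the highest mean over all 6 arrays.

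Genotypes were compared with limma 3.58.1 in R 4.3.3 (lmFit, eBayes, two-sided) on all 38195 probe sets, with Benjamini-Hochberg adjustment at a threshold of 0.05. The code was tested on simulated data. Gene lists are described by counts and medians, without a test. The members, lists and alternatives were chosen with earlier results of these data known. Array values are given for members past the threshold, the 3 with the smallest unadjusted p and the lowest difference in each role, 13 members chosen by name, and, from each further list, the 2 genes with the smallest p. Ccr2, Treml4, Itgam, Hpgd, Il34, Mertk, Ciita and the cell type markers and heat shock genes named were picked after their values were seen. Alternatives changed the normalization, the filter on dim probe sets, the probe set per gene, the variance prior, array weights, a replicate block and the arrays included. The number of arrays limits the precision of every value.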

Additional observations from a re-analysis of the deposited data

How the results depend on the processing

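The count of probe sets past the threshold, 161, was 102 with 1 probe set per gene, 84 with each gene's probe sets averaged, 29 without knockout replicate 1 and wild type replicate 3 together, and 38 to 86 with single arrays left out. The count of members past it, 1, was 0 without that pair of arrays and 0 to 1 with single arrays left out. It was also 1 with the replicate number as a block, but there the gene was Lgals3 (adjusted p = 0.0211) and not Clec7a (adjusted p = 0.0612), and the block gave 168 probe sets in all. Deviations of same-numbered arrays from their group means correlated at only 0.06, 0.14 and 0.02, so the numbers were not read as a pairing. Over 16 alternatives Clec7a was negative in 16 and called in 8, with adjusted p from 0.0183 to 0.265, and Lgals3 was positive in 16 and called in 2. Lyve1 and each MHC class II gene kept their sign in 16 of 16 and were called in 0. The median over all members, 0.15, was 0.03 without the pair of arrays and 0.042 to 0.18 with single arrays left out. Those of the resident (-0.003 to 0.31), recruited and activated (0.05 to 0.12) and shared (0.02 to 0.26) members moved as given with single arrays left out. Tmbim1 ranged from -0.96 to -0.83 with single arrays left out and did not pass without knockout replicate 2 (adjusted p = 0.0512) and without the pair (-0.96, adjusted p = 0.0607). None of the members that changed sign was past the threshold, but they include differences as large as the member median, such as Aif1 (0.23), Fcer1g (0.20), Adgre4 (-0.19) and Cd52 (0.19). The sign changed for Cd163 with array weights (0.009), Arg1 with a second quantile normalization (-0.007) and median centring (-0.001), and, without the pair, Arg1 (-0.11), Spi1 (-0.015), Aif1 (-0.04), Cd84 (0.014), Ptprc (-0.013) and Cd52 (-0.10). With single arrays left out, Cd163 ranged from -0.22 to 0.10, Arg1 from -0.076 to 0.12, Folr2 from -0.10 to 0.30, Mpeg1 from -0.35 to 0.051, Plac8 from -0.075 to 0.067, Adgre4 (listed as Emr4) from -0.37 to 0.014, Fcer1g from -0.021 to 0.37, Aif1 from -0.13 to 0.48, Ptprc from -0.033 to 0.29 and Cd52 from -0.17 to 0.37. Of the 39 members, 6 lay at or below the 40th percentile of mean signal, and the filter left them out.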

Other observations

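The wild type hearts varied more among themselves than the knockout hearts in most of these genes. The SD was larger in wild type hearts for 30 of 39 members (76.9%), against 59.1% of all genes, and the median SD over the members was 0.31 in wild type and 0.13 in knockout hearts, against 0.13 and 0.11 over all genes. Among the 16 Fc receptor, adaptor and general genes it was larger in 15, and wild type replicate 3 had the lowest of the 6 values in 13 (81.2%), against 21.2% of all genes.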
